A study of Mus musculus with 8 samples.

Results

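The aminoacyl-tRNA synthetase genes examined here are the 36 members given by symbol for this gene family, 20 cytosolic and 16 mitochondrial, out of 24421 gene symbols in the deposited count table. Members were matched by their older symbols (Vars rather than a later name), and a symbol ending in 2 was taken as mitochondrial. The study sequenced total RNA from cultured C57BL/6 mouse bone marrow cells labelled with MLL-AF10, a leukaemogenic fusion of the histone methyltransferase MLL with AF10. The cultures were kept in methylcellulose medium (SCF, IL-3 and GM-CSF added) and received 100 nM 4-hydroxytamoxifen (4-OHT), which activates Cre-ERT2, or its ethanol solvent (EtOH) for 4 days. Each of the 4 groups has 2 libraries: MATIP cells with 4-OHT, MATIP cells with EtOH, MAflox cells with 4-OHT and MAflox cells with EtOH. MATIP cells are labelled as MLL-AF10 cells with Tip60 flox/flox and Cre-ERT2, so that 4-OHT targets Kat5, the gene of the TIP60 acetyltransferase. MAflox cells are labelled as MLL-AF10 flox cells; the labels do not spell out their floxed allele or their Cre. All 4 groups are labelled MLL-AF10 and share the culture conditions. Whether MAflox cells keep the fusion after 4-OHT is not given in the labels. The labels give no number of mice, clones or separate cultures. Each p-value therefore sets a difference between groups only against the spread among these libraries, and that spread may be technical.

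Aminoacyl-tRNA synthetases join each amino acid to the tRNAs that carry its anticodons, the step that sets the genetic code at the ribosome. Separate nuclear genes supply the cytosolic and the mitochondrial enzyme for most amino acids, while Gars and Kars each serve both compartments. Enzymes of class I and class II differ in the fold of the catalytic domain and in the side from which they approach the tRNA. In animal cells several cytosolic synthetases sit in a multisynthetase complex held together by scaffold proteins, and many cytosolic synthetase genes are known targets of ATF4, the transcription factor of the amino acid response, and of MYC.

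Library totals were 41101309 to 57312490 counts, and the synthetase members had 262 to 28456 counts per library. Levels are given as CPM, library-size-scaled counts with TMM factors. Kat5 had 8.11 and 8.32 CPM in MATIP cells with 4-OHT, against 41.1 and 41.2 CPM in MATIP cells with EtOH, and 57.5 and 62.5 CPM in MAflox cells with 4-OHT, against 43.7 and 41.2 CPM in MAflox cells with EtOH. Kat5 was thus low in the libraries labelled MATIP with 4-OHT and in no other group. Differentiation markers moved with 4-OHT in both lines: 11 of 11 mature neutrophil markers were called higher in each, with summed levels of 33780 to 37325 CPM with 4-OHT, against 745 to 885 CPM with EtOH, in MATIP cells, and of 49471 to 52885 CPM with 4-OHT, against 337 to 338 CPM with EtOH, in MAflox cells. Macrophage markers (11 of 11 called higher in MATIP, 10 of 11 in MAflox) summed to 23509 to 24570 CPM with 4-OHT, against 442 to 486 CPM with EtOH, in MATIP cells, and to 5149 to 5246 CPM with 4-OHT, against 285 to 303 CPM with EtOH, in MAflox cells. Progenitor markers (5 of 7 called lower and 1, Kit, higher in MATIP, at a log2 change of 0.80, and 6 of 7 lower in MAflox) summed to 419 to 421 CPM with 4-OHT, against 963 to 971 CPM with EtOH, in MATIP cells, and to 541 to 543 CPM with 4-OHT, against 998 to 1016 CPM with EtOH, in MAflox cells. Mast cell and basophil markers summed to at most 33.4 CPM, eosinophil markers to at most 76.0, erythroid and megakaryocyte markers to at most 7.37 (Hba-a1 and Hbb-bs at 0 in all groups), stromal markers to at most 93.2 and lymphoid markers to at most 0.853 in any library (Cd3e, Cd8a and Ncr1 at 0 in all groups). Over all genes tested, 38.6% were called lower and 37.5% higher in MATIP cells, and 32.1% lower and 33.1% higher in MAflox cells. The part of these markers in the synthetase results was not tested. In bulk RNA, fewer cells of a type and less RNA per cell cannot be told apart.

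All 36 members passed the filter on low counts and were tested. Per kilobase of exon, the highest mean levels over the 8 libraries belonged to Gars, the glycyl-tRNA synthetase (104 CPM per kilobase, library range 52.4 to 131), Nars, the asparaginyl-tRNA synthetase (74.6, range 45.8 to 109), and Dars, the aspartyl-tRNA synthetase (69.9, range 41.4 to 105). The lowest belonged to Wars2 and Mars2, the mitochondrial tryptophanyl- and methionyl-tRNA synthetases, at 1.81 (range 1.01 to 2.44) and 1.96 (range 0.926 to 2.88) CPM per kilobase. Neighbours in this order overlapped in their library ranges, and with the longest transcript as the length Dars stood first and Mars2 last. Cars, the cysteinyl-tRNA synthetase, was the lowest cytosolic member at 10.6 CPM per kilobase (range 5.94 to 15.5), and 12 of 16 mitochondrial members had a lower mean than it. Lars2, the mitochondrial leucyl-tRNA synthetase, was the highest mitochondrial member at 20.7 CPM per kilobase (range 14.2 to 34.9).

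Summed over the 20 cytosolic genes, synthetase RNA came to 2002 ± 43.4 CPM in MATIP cells with 4-OHT, against 4875 ± 33.2 CPM in MATIP cells with EtOH, and to 3140 ± 11.6 CPM in MAflox cells with 4-OHT, against 4659 ± 1.50 CPM in MAflox cells with EtOH (SD, n = 2 libraries each). Summed mitochondrial synthetase RNA was 487 ± 24.1 CPM in MATIP cells with 4-OHT, against 749 ± 8.95 CPM in MATIP cells with EtOH, and 733 ± 121 CPM in MAflox cells with 4-OHT, against 816 ± 10.6 CPM in MAflox cells with EtOH. The large spread of the MAflox cells with 4-OHT came from Lars2, whose level differed 1.68-fold between its 2 libraries, the largest replicate difference of any member in any group. Without Lars2 the mitochondrial sum was 317 ± 5.73 CPM in MATIP cells with 4-OHT, against 541 ± 21 CPM in MATIP cells with EtOH, and 425 ± 8.88 CPM in MAflox cells with 4-OHT, against 583 ± 4.47 CPM in MAflox cells with EtOH. The ratio of the cytosolic sum to this mitochondrial sum was 6.31 ± 0.0230 in MATIP cells with 4-OHT, against 9.03 ± 0.411 in MATIP cells with EtOH, and 7.39 ± 0.182 in MAflox cells with 4-OHT, against 8.0 ± 0.0638 in MAflox cells with EtOH. In each line both 4-OHT libraries lay below both EtOH libraries in the cytosolic sum, in the mitochondrial sum without Lars2 and in their ratio.

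**Figure D1:**
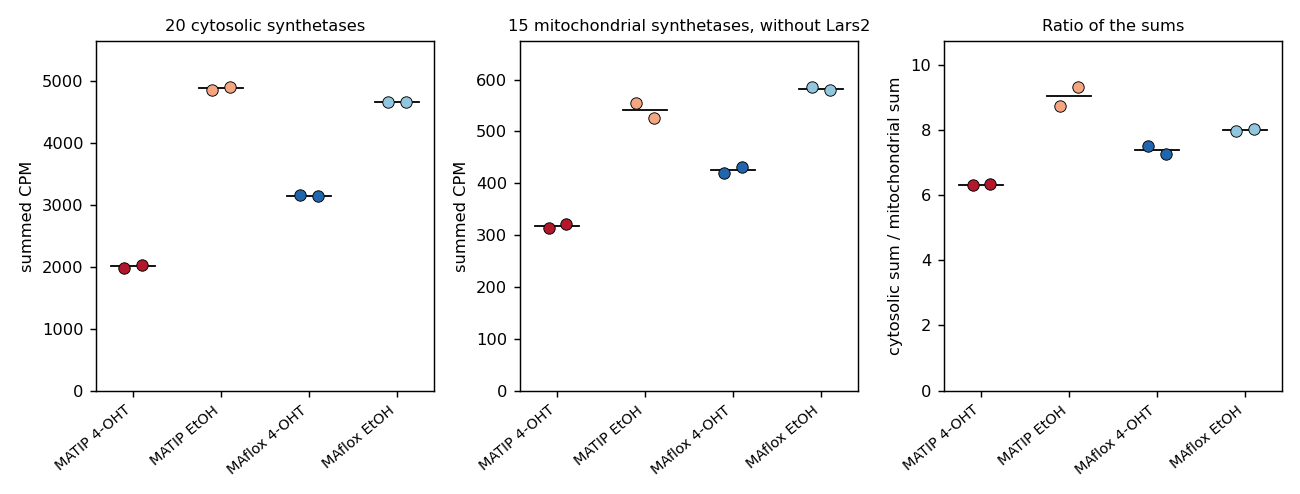
Summed CPM (linear axes from 0) of the 20 cytosolic synthetases, of the mitochondrial synthetases without Lars2, and the ratio of these sums, for MATIP 4-OHT, MATIP EtOH, MAflox 4-OHT and MAflox EtOH, with 1 point per library and a line at the group mean. The cytosolic sum is lowest in MATIP 4-OHT (mean 2002 CPM), and both 4-OHT groups lie below their EtOH groups in every panel.

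In MATIP cells all 20 cytosolic synthetase genes fell with 4-OHT, 15 of them by at least 2-fold, by edgeR's quasi-likelihood test with Benjamini-Hochberg adjustment over all genes at 0.05. Of the 13722 genes tested in this comparison 38.6% were called lower, 37.5% higher and 76.1% one or the other. Those called lower by at least 2-fold numbered 1937 of the 13722. The median log2 change of the 20 genes was -1.29, with a range of -2.03 to -0.71, beside a median of 0.0039 over all genes tested. For each of the 20 both 4-OHT libraries lay below both EtOH libraries, a pattern seen in 44.2% of all genes tested.

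Vars (chr17:35000987-35016322, plus strand, GRCm38), which charges valine, had 85.0 and 85.3 CPM in MATIP cells with 4-OHT, against 349 and 345 CPM in MATIP cells with EtOH. That is 4.07-fold lower (log2 change -2.03 ± 0.06 SE, adjusted p = 8.95e-17), the largest fall of any member. Iars (chr13:49682100-49734267, plus strand), which charges isoleucine, had 63.8 and 63.0 CPM with 4-OHT, against 241 and 252 CPM with EtOH (-1.96 ± 0.06, adjusted p = 5.54e-16). Mars (chr10:127296221-127311786, minus strand), whose enzyme charges both initiator and elongator tRNAs with methionine, had 47.5 and 46.7 CPM with 4-OHT, against 174 and 174 CPM with EtOH (-1.89 ± 0.06, adjusted p = 5.13e-16). In each of these genes replicates lay close together and the 2 groups were far apart. The Mars gene model shares 68 exon bases with Ddit3 on the opposite strand (CHOP), a gene that rose in these cells.

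The smallest falls among the cytosolic genes in MATIP cells were those of Sars, Dars and Qars. Sars, the seryl-tRNA synthetase, which also charges selenocysteine tRNA with serine, had 114 and 123 CPM with 4-OHT, against 185 and 203 CPM with EtOH (-0.71 ± 0.06, adjusted p = 2.94e-09). Dars had 181 and 186 CPM with 4-OHT, against 295 and 309 CPM with EtOH (-0.72 ± 0.06, adjusted p = 9.48e-10). Qars, the glutaminyl-tRNA synthetase, had 89.9 and 88.0 CPM with 4-OHT, against 163 and 169 CPM with EtOH (-0.90 ± 0.06, adjusted p = 3.85e-11). Even in these genes no 4-OHT library reached an EtOH library of the same line.

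In MAflox cells 18 of the 20 cytosolic genes fell with 4-OHT and 2, Dars and Sars, rose. Of all genes tested in this comparison 32.1% were called lower, 33.1% higher and 65.2% one or the other. The median log2 change of the 20 genes was -0.78, with a range of -1.29 to 0.55, beside 0.016 over all genes tested. Of the 20 genes 3 fell by at least 2-fold, beside 1138 of all 13722 genes tested. Scaled by library size alone, the calls over all genes were 5587 lower and 3540 higher, beside 4399 lower and 4548 higher with TMM. Both 4-OHT libraries lay below both EtOH libraries for the 18 genes and above them for Dars and Sars, patterns seen in 39.7% and 41.4% of all genes tested.

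Iars had 93.5 and 88.0 CPM in MAflox cells with 4-OHT, against 215 and 230 CPM in MAflox cells with EtOH (-1.29 ± 0.06, adjusted p = 5.29e-13), the largest fall of any member in this line. Eprs (chr1:185363044-185428360, plus strand), which encodes a fused enzyme that charges both glutamate and proline, had 164 and 151 CPM with 4-OHT, against 367 and 371 CPM with EtOH (-1.23 ± 0.06, adjusted p = 5.25e-13). Vars had 165 and 156 CPM with 4-OHT, against 365 and 359 CPM with EtOH (-1.18 ± 0.05, adjusted p = 5.33e-13). These 3 genes fell by more than 2-fold in both lines.

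Dars (chr1:128363707-128417368, minus strand) rose in MAflox cells, with 416 and 456 CPM with 4-OHT, against 296 and 300 CPM with EtOH (0.55 ± 0.06, adjusted p = 7.44e-08). Sars had 229 and 228 CPM with 4-OHT, against 191 and 198 CPM with EtOH (0.23 ± 0.06, adjusted p = 0.00233), a call that did not hold when counts were scaled by library size alone (0.06, adjusted p = 0.403). Gars had 342 and 343 CPM with 4-OHT, against 390 and 394 CPM with EtOH (-0.20 ± 0.06, adjusted p = 0.00534), the smallest fall among the called cytosolic genes. The next smallest fall, that of Cars, with 63.5 and 68.3 CPM with 4-OHT, against 77.1 and 78.4 CPM with EtOH (-0.24 ± 0.07, adjusted p = 0.00542), rested on MAflox 4-OHT replicate 1 and was -0.18 without it (adjusted p = 0.0803). The 2 genes that rose and those nearest to no change encode enzymes for aspartate, serine, glycine and cysteine.

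**Figure D2:**
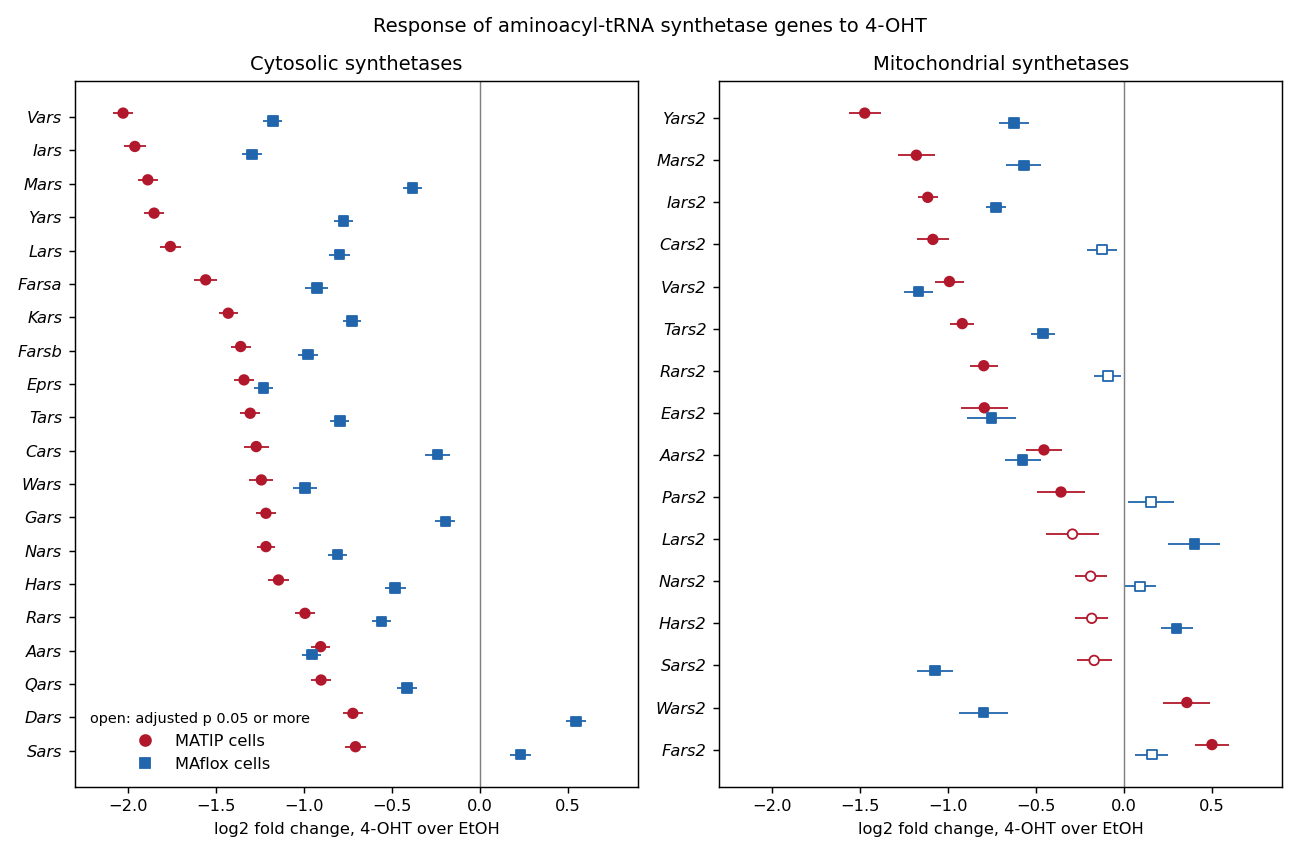
Log2 fold change of 4-OHT over EtOH (x axis) for each cytosolic and mitochondrial synthetase gene (y axis) in MATIP cells (circles) and MAflox cells (squares), with bars of 1 SE from edgeR and open symbols for genes not called at an adjusted p of 0.05. All 20 cytosolic genes lie below 0 in MATIP cells, Dars and Sars lie above 0 in MAflox cells, and the mitochondrial genes scatter on both sides of 0.

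The fall with 4-OHT was larger in MATIP than in MAflox cells for 18 of 20 cytosolic genes by the test of the difference of responses (MATIP minus MAflox), in which 33.6% of all genes tested were called lower, 28.3% higher and 61.9% one or the other. The median difference over the 20 genes was -0.66 on the log2 scale, beside -0.034 over all genes tested. Mars differed most, at -1.50 ± 0.08 (adjusted p = 1.03e-11), with 140 and 148 CPM in MAflox cells with 4-OHT, against 188 and 188 CPM in MAflox cells with EtOH (-0.38 ± 0.05, adjusted p = 5.42e-06). Dars followed with a difference of -1.27 ± 0.08 (adjusted p = 1.35e-10), its response being a fall in MATIP and a rise in MAflox cells. Yars, the tyrosyl-tRNA synthetase (chr4:129189760-129219607, plus strand), had 46.7 and 46.8 CPM in MATIP cells with 4-OHT, against 172 and 165 CPM in MATIP cells with EtOH, and 94.9 and 94.5 CPM in MAflox cells with 4-OHT, against 161 and 163 CPM in MAflox cells with EtOH (difference -1.08 ± 0.08, adjusted p = 9.13e-10). The EtOH levels of these 3 genes were close in both lines, and the lines parted with 4-OHT.

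The other 2 cytosolic genes, Aars and Eprs, were not called in the test of the difference. Aars, the alanyl-tRNA synthetase (chr8:111033144-111057664, plus strand), had 164 and 170 CPM in MATIP cells with 4-OHT, against 312 and 314 CPM in MATIP cells with EtOH, and 131 and 126 CPM in MAflox cells with 4-OHT, against 247 and 252 CPM in MAflox cells with EtOH. Its difference of responses was 0.05 ± 0.08 (adjusted p = 0.589), turned to -0.51 with length and GC offsets (adjusted p = 6.85e-06) and passed the threshold at 0.18 with upper-quartile factors (adjusted p = 0.0449). The Aars gene model shares 1326 exon bases, 14.3% of its exons, with Exosc6 on the same strand, so the counts of these genes are uncertain. Eprs had 169 and 176 CPM in MATIP cells with 4-OHT, against 438 and 435 CPM in MATIP cells with EtOH, and a difference of -0.11 ± 0.08 (adjusted p = 0.230), which passed the threshold at -0.32 with length and GC offsets (adjusted p = 0.00189). A p above the threshold does not show that these 2 genes responded alike.

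Among the called cytosolic genes, the smallest differences of responses were those of Wars, Farsb and Nars. Wars, the tryptophanyl-tRNA synthetase, had 48.9 and 51.7 CPM in MATIP cells with 4-OHT, against 117 and 121 CPM in MATIP cells with EtOH, and 61.1 and 53.2 CPM in MAflox cells with 4-OHT, against 115 and 112 CPM in MAflox cells with EtOH. Its difference of -0.25 ± 0.10 (adjusted p = 0.0307) lost the call under DESeq2 (-0.18, adjusted p = 0.174), 3 other scalings in edgeR, a filter of at least 1 CPM in 2 libraries and 5 of 8 replicate leave-outs. Those were MATIP 4-OHT replicate 1 (-0.18), MATIP 4-OHT replicate 2 (-0.27), MATIP EtOH replicate 2 (-0.24), MAflox 4-OHT replicate 1 (-0.12) and MAflox EtOH replicate 2 (-0.24). Farsb, the beta subunit of the phenylalanyl-tRNA synthetase, had 58.0 and 57.3 CPM in MATIP cells with 4-OHT, against 146 and 149 CPM in MATIP cells with EtOH, and 79.3 and 76.7 CPM in MAflox cells with 4-OHT, against 155 and 152 CPM in MAflox cells with EtOH. Its difference was -0.38 ± 0.08 (adjusted p = 0.00038), and -0.07 with length and GC offsets (adjusted p = 0.424). Nars had 199 and 208 CPM in MATIP cells with 4-OHT, against 470 and 477 CPM in MATIP cells with EtOH, and 227 and 226 CPM in MAflox cells with 4-OHT, against 404 and 389 CPM in MAflox cells with EtOH (difference -0.41 ± 0.07, adjusted p = 0.00011). In all 3 genes the 4-OHT libraries of both lines lay well below the EtOH libraries. Rars, the arginyl-tRNA synthetase, also lost its call on the difference (-0.43) with length and GC offsets (-0.13, adjusted p = 0.12).

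**Figure D3:**
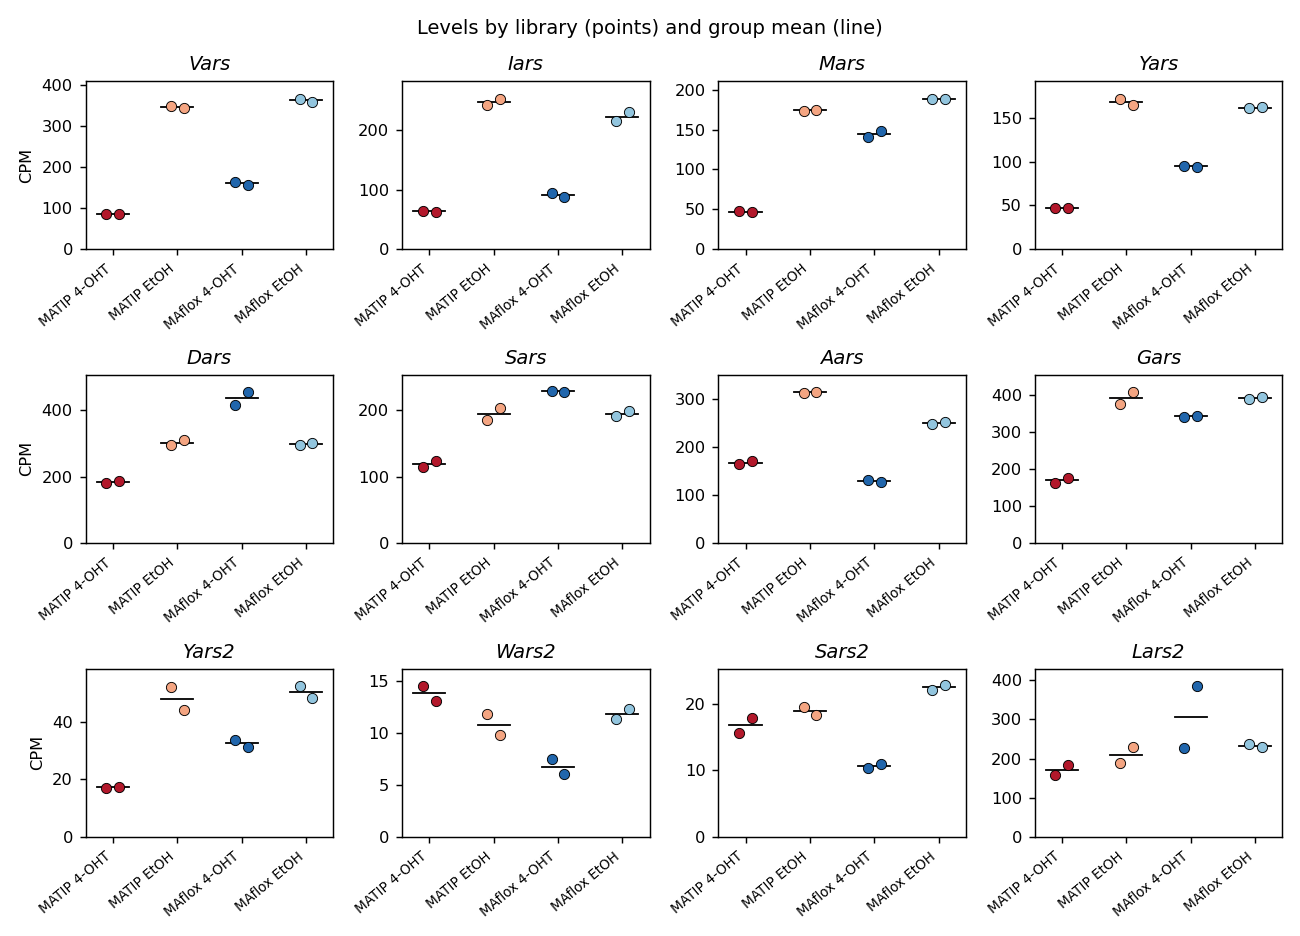
CPM in each library (points) and group mean (lines) on linear axes from 0 for 12 synthetase genes, with groups in the order MATIP 4-OHT, MATIP EtOH, MAflox 4-OHT and MAflox EtOH. Vars, Iars, Mars and Yars are lowest in MATIP 4-OHT, Dars and Sars are highest in MAflox 4-OHT, and the 2 Lars2 libraries of MAflox 4-OHT stand apart at 228 and 387 CPM.

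Mitochondrial synthetases moved in both directions. In MATIP cells 10 of 16 fell, 2 rose (Fars2 and Wars2) and 4 were not called, with a median log2 change of -0.62. Over all genes tested, 38.6% were called lower and 37.5% higher. Both 4-OHT libraries lay below both EtOH libraries for 14 of the 16 and above them for 2, patterns seen in 44.2% of all genes tested each. Yars2, the mitochondrial tyrosyl-tRNA synthetase, fell most, with 17.2 and 17.4 CPM with 4-OHT, against 52.1 and 44.1 CPM with EtOH (-1.47 ± 0.09, adjusted p = 1.61e-11). Mars2 had 10.5 and 12 CPM with 4-OHT, against 27.1 and 23.9 CPM with EtOH (-1.18 ± 0.10, adjusted p = 4.59e-09). Fars2, the mitochondrial phenylalanyl-tRNA synthetase, had 22.0 and 22.8 CPM with 4-OHT, against 16.6 and 15.1 CPM with EtOH (0.50 ± 0.09, adjusted p = 9.19e-05). Wars2 had 14.5 and 13.0 CPM with 4-OHT, against 11.8 and 9.80 CPM with EtOH (0.36 ± 0.13, adjusted p = 0.0212). The rise of Wars2 lost its call without MATIP 4-OHT replicate 1 (0.32, adjusted p = 0.104), without MATIP EtOH replicate 2 (0.22, adjusted p = 0.21) and with library size alone (0.22, adjusted p = 0.14). The 4 uncalled genes had changes of -0.29 (Lars2), -0.19 (Nars2), -0.18 (Hars2) and -0.17 (Sars2). Each of the 4 was called lower with library size alone. Hars2 was also called without MATIP EtOH replicate 2 (-0.29, adjusted p = 0.0149), and Sars2 with length and GC offsets (-0.29, adjusted p = 0.0107). Lars2 was called without MATIP EtOH replicate 1 (-0.44, adjusted p = 0.0113), without either MAflox 4-OHT library, with only the 4 libraries compared, with no filter on low counts and with the replicate block (-0.29, adjusted p = 0.0274). The call on Pars2 (-0.36, adjusted p = 0.0217) was lost with DESeq2's size factors (-0.28, adjusted p = 0.0615), upper-quartile factors (-0.21, adjusted p = 0.159) and DESeq2 (-0.29, adjusted p = 0.138). It was also lost with a filter of at least 1 CPM in 2 libraries (-0.30, adjusted p = 0.0503) and without MATIP 4-OHT replicate 2 (-0.23).

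In MAflox cells 9 of 16 mitochondrial genes fell, 2 rose (Hars2 and Lars2) and 5 were not called, with a median log2 change of -0.51. Over all genes tested, 32.1% were called lower and 33.1% higher. Both 4-OHT libraries lay below both EtOH libraries for 10 of the 16 and above them for 3, beside 39.7% and 41.4% of all genes tested. Vars2, the mitochondrial valyl-tRNA synthetase, had 17.2 and 17.6 CPM with 4-OHT, against 40.2 and 38.1 CPM with EtOH (-1.17 ± 0.08, adjusted p = 2.84e-10). Sars2, the mitochondrial seryl-tRNA synthetase, had 10.4 and 11.0 CPM with 4-OHT, against 22.1 and 22.8 CPM with EtOH (-1.07 ± 0.10, adjusted p = 2.32e-08). Both fell by more than 2-fold with no overlap between groups. Hars2, the mitochondrial histidyl-tRNA synthetase, had 36.8 and 43.5 CPM with 4-OHT, against 32.4 and 32.8 CPM with EtOH (0.30 ± 0.09, adjusted p = 0.00719), and 0.19 without MAflox 4-OHT replicate 2 (adjusted p = 0.118). Lars2 had 228 and 387 CPM with 4-OHT, against 237 and 229 CPM with EtOH (0.40 ± 0.15, adjusted p = 0.0247). One 4-OHT library lay among the EtOH libraries and the other far above them. Without MAflox 4-OHT replicate 2 the change of Lars2 was -0.01 (adjusted p = 0.949), and without MAflox EtOH replicate 2 it was 0.37 (adjusted p = 0.0716). Mars2 fell (-0.57) but was at -0.08 with length and GC offsets (adjusted p = 0.561).

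By the test of the difference, the response to 4-OHT was lower in MATIP than in MAflox cells for 9 mitochondrial genes. It was higher for 3, Wars2, Sars2 and Fars2, and the median difference was -0.42. Over all genes tested, 33.6% were called lower and 28.3% higher. Wars2 had 7.46 and 6.03 CPM in MAflox cells with 4-OHT, against 11.3 and 12.2 CPM in MAflox cells with EtOH, so that a fall in MAflox stood against a rise in MATIP cells (difference 1.16 ± 0.19, adjusted p = 3.69e-05). Sars2 had 15.7 and 17.9 CPM in MATIP cells with 4-OHT, against 19.5 and 18.3 CPM in MATIP cells with EtOH (-0.17 ± 0.10, adjusted p = 0.130), and its difference was 0.90 ± 0.14 (adjusted p = 2.01e-05). Cars2, the mitochondrial cysteinyl-tRNA synthetase, had 16.7 and 17.4 CPM in MATIP cells with 4-OHT, against 38.0 and 34.5 CPM in MATIP cells with EtOH, and 28.8 and 32.5 CPM in MAflox cells with 4-OHT, against 34.6 and 32.3 CPM in MAflox cells with EtOH (difference -0.96 ± 0.12, adjusted p = 1.78e-06). Its groups were far apart in MATIP cells and overlapped in MAflox cells. Yars2 had 33.9 and 31.5 CPM in MAflox cells with 4-OHT, against 52.6 and 48.5 CPM in MAflox cells with EtOH (difference -0.85 ± 0.12, adjusted p = 7.93e-06). Fars2 differed by 0.34 ± 0.13 (adjusted p = 0.0334), a call lost without MATIP 4-OHT replicate 2 (0.34, adjusted p = 0.0819), MATIP EtOH replicate 2 (0.26, adjusted p = 0.14), MAflox 4-OHT replicate 2 (0.34, adjusted p = 0.063) or MAflox EtOH replicate 1 (0.28, adjusted p = 0.125). The differences of Lars2 (-0.69, adjusted p = 0.00806) and Pars2 (-0.51, adjusted p = 0.0232) also rested on single libraries. With DESeq2 both calls were lost (Lars2 -0.62, adjusted p = 0.198, and Pars2 -0.44, adjusted p = 0.113). Upper-quartile factors also removed the call on Pars2 (-0.38, adjusted p = 0.0847). For Lars2 the value was -0.25 without MAflox 4-OHT replicate 2 (adjusted p = 0.147) and -0.56 without MATIP 4-OHT replicate 1 (adjusted p = 0.0636). For Pars2, the prolyl enzyme of mitochondria, it was -0.39 without MATIP 4-OHT replicate 2, -0.43 without MAflox 4-OHT replicate 2 and -0.40 without MAflox EtOH replicate 1, with adjusted p of 0.122, 0.0879 and 0.0979.

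For 13 amino acids both partners, a cytosolic and a mitochondrial gene, are among the members. In MATIP cells the log2 change of the cytosolic gene was below that of its mitochondrial partner in 13 of 13 pairs, by a median of -0.71. The widest gap was between Wars at -1.24 and Wars2 at 0.36, and the narrowest between Cars at -1.27 and Cars2 at -1.09. In MAflox cells it was below in 11 of 13 pairs, by a median of -0.33, and the exceptions were Sars (0.23) with Sars2 (-1.07) and Mars (-0.38) with Mars2 (-0.57). Valine gave nearly equal changes in that line, -1.18 for Vars and -1.17 for Vars2. The gaps between partners were not tested.

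The members were also described by catalytic class, complex membership and known regulation. Cytosolic class I genes had a median log2 change of -1.55 and class II genes of -1.21 in MATIP cells, and of -0.79 and -0.76 in MAflox cells. Mitochondrial class I genes had medians of -0.99 in MATIP and -0.63 in MAflox cells, and class II genes of -0.19 in MATIP and 0.09 in MAflox cells. The 8 synthetases of the multisynthetase complex had a median of -1.38 in MATIP and -0.64 in MAflox cells, beside -1.26 and -0.80 for the 12 other cytosolic genes. The 12 cytosolic genes listed as ATF4 targets had a median of -1.29 in MATIP and -0.80 in MAflox cells, beside -1.25 and -0.64 for the 8 not listed. None of these groupings was tested against another.

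Promoters are shown for 7 members because their genes fell together or parted between the lines, and because a pair of short motifs known to bind factors of synthetase genes can be read in some of them. RefSeq promoters (GRCm38.p6, 250 bases before to 50 bases after the annotated start, 300 bases in all) were used for 27 of 36 members. Capitals mark CACGTG, the E box that MYC and related factors bind, and TGATGCA, a core shared by C/EBP-ATF composite sites, each searched on both strands, so that the reverse complement is capitalised too. Each sequence is given 5′ to 3′ on the strand of its gene. They lie at chr13:49681880-49682179 (Iars, plus strand), chr15:11399609-11399908 (Tars, minus strand), chr8:111033592-111033891 (Aars, plus strand), chr4:129189653-129189952 (Yars, plus strand), chr10:127311737-127312036 (Mars, minus strand), chr1:128417367-128417666 (Dars, minus strand) and chr3:99140840-99141139 (Wars2, plus strand).
Iars: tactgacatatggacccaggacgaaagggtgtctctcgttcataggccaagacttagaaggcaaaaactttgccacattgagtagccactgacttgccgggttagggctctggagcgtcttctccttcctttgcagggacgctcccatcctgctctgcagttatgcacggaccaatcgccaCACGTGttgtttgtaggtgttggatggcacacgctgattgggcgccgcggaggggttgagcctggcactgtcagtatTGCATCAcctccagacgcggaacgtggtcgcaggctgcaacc
Tars: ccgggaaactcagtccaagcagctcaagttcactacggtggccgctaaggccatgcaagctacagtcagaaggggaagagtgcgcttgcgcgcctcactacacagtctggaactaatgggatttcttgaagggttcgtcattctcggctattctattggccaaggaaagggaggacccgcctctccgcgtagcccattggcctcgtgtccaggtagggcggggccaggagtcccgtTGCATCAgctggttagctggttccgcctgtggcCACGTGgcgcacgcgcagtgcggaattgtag
Aars: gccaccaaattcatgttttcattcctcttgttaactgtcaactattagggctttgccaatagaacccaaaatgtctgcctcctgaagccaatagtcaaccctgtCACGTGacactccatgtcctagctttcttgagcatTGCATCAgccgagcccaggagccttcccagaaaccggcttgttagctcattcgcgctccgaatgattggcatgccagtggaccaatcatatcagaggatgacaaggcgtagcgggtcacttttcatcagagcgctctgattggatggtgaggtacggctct
Yars: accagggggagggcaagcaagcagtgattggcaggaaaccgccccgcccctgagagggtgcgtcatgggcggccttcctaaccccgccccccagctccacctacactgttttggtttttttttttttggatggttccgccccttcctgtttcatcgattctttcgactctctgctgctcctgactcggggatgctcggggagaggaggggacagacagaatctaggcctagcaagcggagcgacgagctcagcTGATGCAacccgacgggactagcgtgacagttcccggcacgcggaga
Mars: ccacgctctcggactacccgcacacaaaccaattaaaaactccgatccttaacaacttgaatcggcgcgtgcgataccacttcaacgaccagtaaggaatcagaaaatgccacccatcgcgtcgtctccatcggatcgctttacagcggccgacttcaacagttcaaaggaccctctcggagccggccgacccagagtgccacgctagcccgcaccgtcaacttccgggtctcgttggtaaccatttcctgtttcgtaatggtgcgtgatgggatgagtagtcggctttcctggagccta
Dars: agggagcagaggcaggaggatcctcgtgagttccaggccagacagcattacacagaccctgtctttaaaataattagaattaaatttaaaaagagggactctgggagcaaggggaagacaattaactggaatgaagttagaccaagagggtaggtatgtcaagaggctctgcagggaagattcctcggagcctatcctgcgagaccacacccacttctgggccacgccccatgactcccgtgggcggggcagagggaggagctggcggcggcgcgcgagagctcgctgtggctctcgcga
Wars2: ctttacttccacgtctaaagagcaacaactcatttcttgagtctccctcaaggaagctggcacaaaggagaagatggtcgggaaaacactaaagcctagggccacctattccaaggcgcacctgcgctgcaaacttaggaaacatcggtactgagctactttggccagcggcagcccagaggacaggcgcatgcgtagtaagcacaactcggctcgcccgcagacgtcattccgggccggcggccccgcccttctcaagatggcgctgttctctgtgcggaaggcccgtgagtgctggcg

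The TGATGCA core was found in 4 of 13 cytosolic promoters (Iars, Tars, Aars and Yars), in none of the 14 mitochondrial ones, and in 3.15% of all 32851 promoters of the same length. All 4 are among the promoters shown, so those shown do not tell how common the core is. CACGTG was found in 4 of 13 cytosolic promoters (Iars, Tars, Aars and Farsb) and in 1 of 14 mitochondrial promoters (Ears2), beside 7.15% of all promoters. Of the genes that hold the core, Iars changed by -1.96, Yars by -1.85 and Tars by -1.30 in MATIP cells on the log2 scale, and Mars, whose window holds neither motif, by -1.89. Dars and Sars, each with neither motif, fell in MATIP and rose in MAflox cells. Aars, with both motifs, changed by -0.90 in MATIP and -0.95 in MAflox cells. No promoter was searched for Cars, Hars, Lars, Nars, Rars, Vars, Wars, Hars2 and Pars2, so the motif counts leave these members out. Whether each of them has a RefSeq promoter is not reported here. A match is a run of letters and not a bound site, and its absence says only that these letters are not in this window.

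In the solvent, MATIP cells and MAflox cells differed in 9 of 36 synthetase genes, beside 32% of all genes tested. Set against MAflox cells, MATIP cells had 6 of 20 cytosolic genes higher and 2 lower, beside 20.3% of all genes tested called higher and 11.7% lower, with a median log2 difference of 0.01 beside 0.022 over all genes. With upper-quartile factors the calls over all genes in this comparison were 2062 higher and 2527 lower, beside 2780 higher and 1608 lower with TMM. The 6 higher genes, Aars (0.33), Cars (0.30), Nars (0.25), Eprs (0.24), Tars (0.23) and Lars (0.18), are all on the list of ATF4 targets. That list holds 12 of the 20 cytosolic genes, and 6 of the 12 were not called, the lowest being Mars (-0.11). The calls on Lars and Cars were lost when single EtOH libraries were left out: Lars had 0.14 without MATIP EtOH replicate 1 (adjusted p = 0.147) and 0.15 without MAflox EtOH replicate 1 (adjusted p = 0.182), and Cars had 0.20 without MATIP EtOH replicate 2 (adjusted p = 0.0698). Farsa (-0.23) and Kars (-0.15) were lower. Farsa lost its call without MATIP EtOH replicate 2 (-0.18, adjusted p = 0.103) or MAflox EtOH replicate 1 (-0.22, adjusted p = 0.0627). Kars lost it without any single EtOH library: -0.16 without MATIP EtOH replicate 1, -0.14 without MATIP EtOH replicate 2, -0.16 without MAflox EtOH replicate 1 and -0.14 without MAflox EtOH replicate 2. Of the mitochondrial genes Mars2 was called lower (-0.27, adjusted p = 0.0398), and it lost the call without MATIP EtOH replicate 2 (-0.18, adjusted p = 0.288) or MAflox EtOH replicate 1 (-0.19, adjusted p = 0.286). Line and culture cannot be told apart in this comparison.

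Genes around the synthetases were examined by role. All 3 scaffold genes of the multisynthetase complex fell in MATIP cells and 2 of 3 in MAflox cells. Over all genes tested, 38.6% were called lower in MATIP and 32.1% in MAflox cells. Aimp2 had 25.5 and 25.4 CPM in MATIP cells with 4-OHT, against 73.2 and 74.7 CPM in MATIP cells with EtOH (-1.54 ± 0.06, adjusted p = 4.88e-14), and its difference of responses was -1.29 (adjusted p = 3.19e-10). Aimp1 had 35.4 and 42.4 CPM in MATIP cells with 4-OHT, against 84.8 and 78.6 CPM in MATIP cells with EtOH (-1.07 ± 0.08, adjusted p = 2.72e-10), and 80.0 and 80.4 CPM in MAflox cells with 4-OHT, against 85.1 and 78.5 CPM in MAflox cells with EtOH (-0.03 ± 0.08, adjusted p = 0.774). Its groups overlapped in MAflox cells only. Eef1e1, the smallest scaffold protein, changed by -1.21 in MATIP and -0.41 in MAflox cells.

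Other enzymes of charging and quality control were mostly lower in MATIP cells. Over all genes tested, 38.6% were called lower and 37.5% higher in MATIP cells, and 32.1% lower and 33.1% higher in MAflox cells. Of 4 further synthetase-related genes, 4 fell in MATIP and 3 in MAflox cells, among them Pstk, the kinase on the selenocysteine route (-0.89 in MATIP and -0.30 in MAflox). The Pstk call in MAflox cells was lost without MAflox 4-OHT replicate 2 (-0.18, adjusted p = 0.26) or MAflox EtOH replicate 1 (-0.25, adjusted p = 0.142). Of 6 editing genes, 4 fell and 1 rose in MATIP cells. In MAflox cells 2 fell, a share near that of all genes tested, and 1 rose. Prorsd1, a prolyl-tRNA synthetase editing domain protein, had 12.8 and 10.4 CPM in MATIP cells with 4-OHT, against 22.0 and 21.8 CPM in MATIP cells with EtOH, and 36.9 and 38.1 CPM in MAflox cells with 4-OHT, against 23.0 and 24.8 CPM in MAflox cells with EtOH (difference -1.57 ± 0.14, adjusted p = 1.04e-08). It was lowest in MATIP and highest in MAflox cells with 4-OHT. Dtd1, the D-aminoacyl-tRNA deacylase, fell by 1.32 on the log2 scale in MATIP cells and Ptrh2, a peptidyl-tRNA hydrolase, by 1.06. All 4 mitochondrial charging partners fell in both lines, such as Mtfmt, which formylates the mitochondrial initiator tRNA (-0.91 in MATIP and -0.30 in MAflox). In MATIP cells 2 of 4 were called without MATIP 4-OHT replicate 1, without MATIP EtOH replicate 1, with upper-quartile factors or with DESeq2, and in MAflox cells 2 of 4 without MAflox 4-OHT replicate 2. The Mtfmt call in MAflox cells was lost without MAflox 4-OHT replicate 2 (-0.23, adjusted p = 0.0763).

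Elongation factors, some of which deliver charged tRNAs to the ribosome, were examined by compartment. Over all genes tested, 38.6% were called lower and 37.5% higher in MATIP cells, and 32.1% lower and 33.1% higher in MAflox cells. In the difference of responses 33.6% were called lower and 28.3% higher. The 5 cytosolic genes all fell in MATIP cells, while in MAflox cells 3 fell and 2 rose, and 4 of 5 were called lower in the difference of responses. The other, Eef2, was not called there, and was called higher with DESeq2's size factors (0.19, adjusted p = 0.0461), with upper-quartile factors (0.25, adjusted p = 0.0103), with DESeq2 (0.18, adjusted p = 0.0202) and without MAflox 4-OHT replicate 1 (0.21, adjusted p = 0.0293). In MAflox cells the 2 higher genes were 1 with library size alone and 0 with length and GC offsets. Eef1g, a subunit of the exchange factor of eEF1A, had 244 and 271 CPM in MATIP cells with 4-OHT, against 1128 and 1070 CPM in MATIP cells with EtOH (-2.09 ± 0.06, adjusted p = 1.7e-16), and a difference of -1.55 (adjusted p = 1.14e-11). Eef1b2, another exchange subunit, changed by -1.31 in MATIP and 0.28 in MAflox cells, the second value being 0.01 with length and GC offsets (adjusted p = 0.889). The 4 mitochondrial factors fell in both lines and 1 of them, Tsfm, differed between the lines (-0.55, adjusted p = 0.00223), a call lost with length and GC offsets (-0.16, adjusted p = 0.267). Tufm, the mitochondrial elongation factor Tu, changed by -1.20 in MATIP and -1.24 in MAflox cells (difference 0.04 ± 0.08, adjusted p = 0.717).

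Of 25 genes of tRNA maturation and export, 24 fell and 1 rose in MATIP cells, with a median log2 change of -0.71, beside 38.6% of all genes tested called lower and 37.5% higher. In MAflox cells 12 fell and 2 rose, with a median of -0.20, beside 32.1% of all genes called lower and 33.1% higher. The 12 lower genes were 19 with library size alone. The 1 higher gene of MATIP cells lost its call without MATIP EtOH replicate 1, without MATIP EtOH replicate 2 and with library size alone, and the 2 higher ones of MAflox cells were 1 to 3 over the alternatives, with 1 when any of MAflox 4-OHT replicate 2, MAflox EtOH replicate 1, MAflox EtOH replicate 2, MATIP EtOH replicate 1 or MATIP EtOH replicate 2 was left out. Xpot, the tRNA exportin, had 72.2 and 70.5 CPM in MATIP cells with 4-OHT, against 339 and 341 CPM in MATIP cells with EtOH, and 200 and 215 CPM in MAflox cells with 4-OHT, against 313 and 334 CPM in MAflox cells with EtOH (difference -1.61 ± 0.08, adjusted p = 5.52e-12). It fell in both lines and lay lowest in MATIP cells with 4-OHT. Ssb, the La protein that binds new RNA polymerase III transcripts, differed by -1.14 (adjusted p = 3.42e-10), and by -0.54 with length and GC offsets. The 21 genes of RNA polymerase III and its factors, which transcribe the tRNA genes, had similar medians in both lines, -0.51 in MATIP and -0.45 in MAflox cells. Of these, 14 fell and 2 rose in MATIP cells, and 16 fell and 2 rose in MAflox cells. The 2 higher ones of MATIP cells were 4 with DESeq2's size factors or upper-quartile factors and 0 with library size alone. In the difference 9 were lower and 8 higher, beside 33.6% of all genes tested called lower and 28.3% higher. Polr3e changed by -1.73 in MATIP and -0.96 in MAflox cells, and Polr3g by -1.56 in MATIP and -0.58 in MAflox cells.

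**Figure D4:**
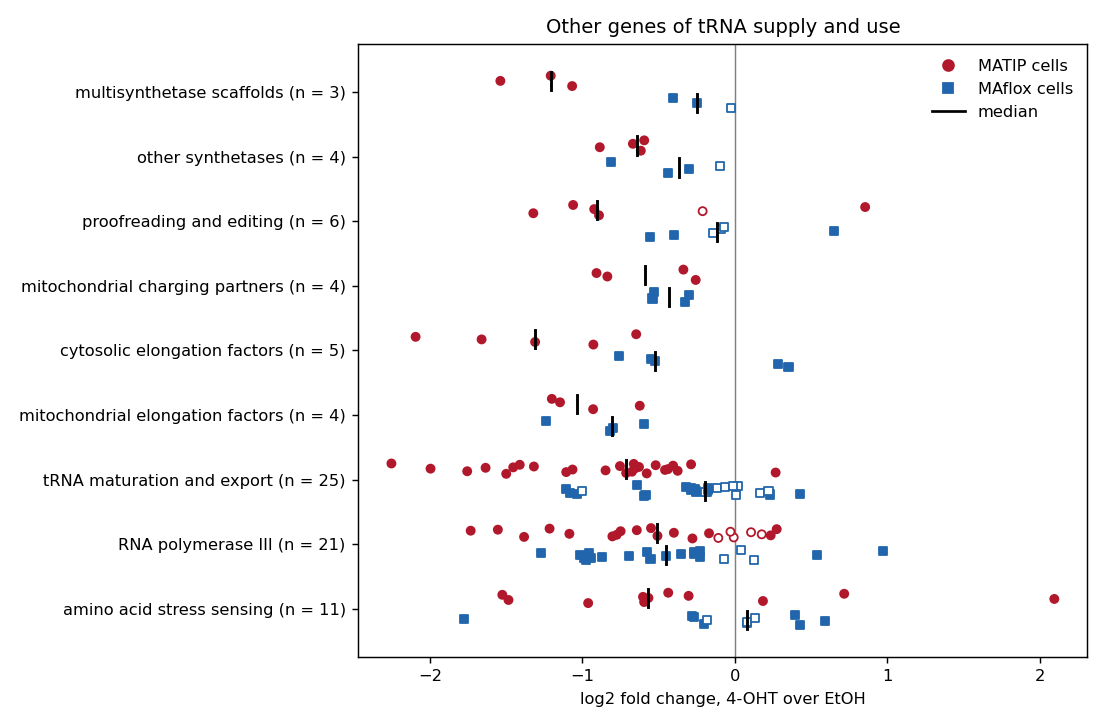
Log2 fold change of 4-OHT over EtOH (x axis) for genes of 9 lists around tRNA charging (y axis, n genes each) in MATIP cells (circles) and MAflox cells (squares), with open symbols for genes not called at an adjusted p of 0.05 and black lines at list medians. The MATIP median lies below the MAflox median in each list, by least for RNA polymerase III (-0.51 and -0.45).

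Of 11 genes of amino acid stress sensing, 8 fell and 3 rose in MATIP cells, beside 38.6% of all genes tested called lower and 37.5% higher. In MAflox cells 4 fell and 3 rose, shares near those of all genes tested (32.1% lower and 33.1% higher), and 2 fell without MAflox EtOH replicate 2. With length and GC offsets 1 gene rose in each line. Ddit3, the stress transcription factor CHOP, had 30.1 and 29.7 CPM in MATIP cells with 4-OHT, against 6.68 and 7.28 CPM in MATIP cells with EtOH (2.09 ± 0.13, adjusted p = 2.55e-11), and rose by less in MAflox cells (0.59). Asns, the asparagine synthetase and an ATF4 target, had 95.8 and 101 CPM in MATIP cells with 4-OHT, against 181 and 203 CPM in MATIP cells with EtOH, and 211 and 207 CPM in MAflox cells with 4-OHT, against 152 and 159 CPM in MAflox cells with EtOH (difference -1.39 ± 0.09, adjusted p = 1.29e-10). Like Dars and Sars, it fell in MATIP and rose in MAflox cells. Psat1, of serine synthesis, changed by -1.53 in MATIP and -0.27 in MAflox cells. Atf4 itself, named after its values were seen, changed by -0.60 in MATIP and -0.20 in MAflox cells, and the second call was lost without MAflox EtOH replicate 2 (-0.18, adjusted p = 0.054).

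Most proliferation and growth genes fell with 4-OHT, and their part in the synthetase result was not tested. Over all genes tested, 38.6% were called lower and 37.5% higher in MATIP cells, and 32.1% lower and 33.1% higher in MAflox cells. Of 12 proliferation genes 11 fell in MATIP cells (median -1.36), and 7 fell and 2 rose in MAflox cells (median -0.24). Their summed level was 2195 to 2220 CPM in MATIP cells with 4-OHT, against 4589 to 4645 CPM in MATIP cells with EtOH, and 4063 to 4262 CPM in MAflox cells with 4-OHT, against 4781 to 4933 CPM in MAflox cells with EtOH. Cdc20, which switches on the ubiquitin ligase that ends metaphase, changed by -2.21 in MATIP and -0.34 in MAflox cells. Mki67, named after its values were seen, went the other way between the lines. It changed by -0.013 in MATIP (not called) and -0.87 in MAflox cells, a difference of 0.85. With length and GC offsets its change in MATIP cells was -0.19 and its difference 0.10. Of 10 genes of the MYC and nucleolar list, 9 fell and 1, Myc itself, rose in MATIP cells (median -2.13), and 10 fell in MAflox cells (median -0.86). Their summed level was 2698 to 2837 CPM in MATIP cells with 4-OHT, against 8122 to 9162 CPM in MATIP cells with EtOH, and 4182 to 4250 CPM in MAflox cells with 4-OHT, against 8483 to 8780 CPM in MAflox cells with EtOH. Cad, of pyrimidine synthesis, changed by -2.67 in MATIP and -2.54 in MAflox cells, and Myc by 0.31 in MATIP and -0.67 in MAflox cells.

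In the authors' deposited table, the log2 fold changes of all 36 members had the same sign as those given here in both lines. That table compares the same groups of this series, so the match in sign is not independent evidence. The authors' deposited table called 30 members lower and 2 higher in MATIP cells and 27 lower and 3 higher in MAflox cells at an adjusted p of 0.05. Its share over all genes is not reported here. By edgeR, 38.6% of all genes tested were called lower and 37.5% higher in MATIP cells, and 32.1% lower and 33.1% higher in MAflox cells. Lars2 was called differently in both lines: the authors' deposited table gave -0.25 (adjusted p = 0.0128) in MATIP and 0.37 (adjusted p = 0.366) in MAflox cells. Pars2 in MATIP cells was not called in the authors' deposited table (-0.31, adjusted p = 0.157).

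Counts of some members carry uncertainty from their neighbours, since the strand setting of the counting is not given in the sources used here. In the GENCODE M21 annotation 13 members share exon bases with another gene. The largest overlaps beside that of Aars are those of Iars2 with Rab3gap2 (2034 bases, 22.9% of the Iars2 exons), Farsb with Sgpp2 (248 bases, 9.47%), Fars2 with Nrn1 (501 bases, 8.72%) and Vars2 with a transcript on the other strand (465 bases, 8.52%). Hars and Hars2 lie head to head and share 195 bases on opposite strands. For these genes reads of the partners cannot be told apart without strand.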

How the data were processed

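RNA-seq of 8 libraries was used, 2 in each of 4 groups, with groups and replicate numbers taken from the sample titles. The authors deposited whole-number read counts per gene symbol, not normalized. The submitters' processing notes name the mm10 build and 4 tools: DESeq2, featureCounts 1.6.4, HISAT2 2.1.0 and Trimmomatic 0.38.0. Not given in the sources used here are strand setting, treatment of multimapping reads and annotation. Of the count file's other columns 23 are empty, and 0 filled ones lack a sample. Per the file headers, a further deposited table gives log2 fold changes and adjusted p-values by the authors.

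A filter by group (filterByExpr, at least 10 counts and 15 in total) kept 13722 of 24421 genes. They were scaled by TMM and tested by quasi-likelihood in edgeR 4.0.16 under R 4.3.3, fitting all 8 libraries together with a coefficient for each group, 4 residual degrees of freedom and 14.3 prior degrees of freedom. Benjamini-Hochberg adjustment ran over all 13722 genes of a contrast, with calls at 0.05. A standard error is the log2 change over the square root of F. The fit was tested on simulated data. Counts of replicates differed beyond sampling noise, with a chi-square per degree of freedom of 6.96 to 12.8, and none were merged. Same-numbered samples of a line were not correlated (r = -0.0391 in MATIP, -0.0023 in MAflox), so numbers were not treated as pairs.

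Members, the 19 gene lists (synthetase neighbours, cell type markers, proliferation, and MYC and nucleolar genes) and the tests were chosen with earlier results of these data known. Named were the extreme called members of each contrast (3 cytosolic and 2 mitochondrial in each direction), the highest and lowest levels per kilobase, and from each pathway list the 2 genes with the smallest p in the MATIP response and in the difference. Lengths came from GENCODE M21 exon models and promoters from RefSeq GRCm38.p6. Alternatives were other scalings, DESeq2 1.42.0, other filters, leaving out each library, only the libraries compared, a replicate block, and length and GC offsets (96.2% of tested genes had both). Some genes of these lists are not reported here by name. Leave-outs leave 1 library in a group, which is assumed to vary like the others.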

Additional observations from a re-analysis of the deposited data

Results flagged for a closer look

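The response to 4-OHT differed between MATIP and MAflox cells by the test of the difference for 30 of 36 members (edgeR quasi-likelihood, adjusted p under 0.05). Of all genes tested 61.9% were called in this test. Each of the 30 is given here as MATIP minus MAflox on the log2 scale. In 18 cytosolic genes the MATIP response was the lower one: Mars (-1.50), Dars (-1.27), Yars (-1.08), Cars (-1.03), Gars (-1.02), Lars (-0.96), Sars (-0.94), Vars (-0.85), Kars (-0.70), Iars (-0.67), Hars (-0.66), Farsa (-0.63), Tars (-0.51), Qars (-0.49), Rars (-0.43), Nars (-0.41), Farsb (-0.38) and Wars (-0.25). It was also the lower one in 9 mitochondrial genes: Cars2 (-0.96), Yars2 (-0.85), Rars2 (-0.70), Lars2 (-0.69), Mars2 (-0.61), Pars2 (-0.51), Hars2 (-0.48), Tars2 (-0.46) and Iars2 (-0.39). In 3 mitochondrial genes the MATIP response was the higher one: Wars2 (1.16), Sars2 (0.90) and Fars2 (0.34). Dars and Sars fell in MATIP and rose in MAflox cells, and Wars2 rose in MATIP and fell in MAflox cells. Calls were lost by leaving out 1 library for Wars, Fars2, Lars2 and Pars2, with the values given above.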

How the results depend on the processing

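All 20 cytosolic genes were called lower in MATIP cells under every alternative run. Their median log2 change of -1.29 was -1.21 with DESeq2's size factors, -1.42 with library size alone, -1.14 with upper-quartile factors, -1.22 with DESeq2, -1.23 with a filter of at least 1 CPM in 2 libraries, and -1.32 to -1.22 with single libraries left out. Library size alone moved the median of all genes tested to -0.13 in MATIP and -0.15 in MAflox cells, and upper-quartile factors moved it to 0.15 in MATIP cells. In MATIP cells the mitochondrial median of -0.62 was -0.76 with library size alone, -0.48 with upper-quartile factors and -0.63 to -0.58 with single libraries left out. There 9 to 14 mitochondrial genes were lower over all alternatives, and the 2 higher ones were 1 with library size alone and 1 to 2 with libraries left out.

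In MAflox cells 17 to 18 cytosolic genes were lower, and the 2 higher ones were 1 with library size alone. The cytosolic median of -0.78 was -0.96 with library size alone. The mitochondrial median of -0.51 was -0.69 with library size alone, -0.38 with length and GC offsets, -0.38 with the replicate block and these offsets, and -0.56 to -0.45 with libraries left out. The 2 higher mitochondrial genes were 1 with Lars2 left out of the members (an alternative chosen after seeing the data), 0 with library size alone, 1 with DESeq2 and 0 to 2 with libraries left out. Lars2 ranged over the leave-outs from -0.012 without MAflox 4-OHT replicate 2 to 0.73 without MAflox 4-OHT replicate 1.

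In the difference of responses 17 to 18 cytosolic genes were lower, and 1 (Aars) became higher with upper-quartile factors. The cytosolic median of -0.66 was -0.53 with upper-quartile factors. Mitochondrial counts were 7 to 10 lower and 2 to 4 higher. With length and GC offsets Aars turned to -0.51, also with the replicate block (-0.51), and Vars2 to -0.28, while Ccnb1 of the proliferation list turned to -0.14 in MAflox cells in both fits. The cause was not tested.

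In the solvent comparison the 2 lower cytosolic genes were 4 with upper-quartile factors and 0 to 3 with libraries left out, and the cytosolic median of 0.01 was -0.029 with library size alone and -0.065 with upper-quartile factors. Its 1 lower mitochondrial gene was 2 with DESeq2's size factors, 4 with library size alone, 5 with upper-quartile factors, 0 with DESeq2, 3 with no filter, 2 with the CPM filter, 3 with only the 4 libraries compared, 3 with length and GC offsets, 3 with these and the replicate block, and 0 to 2 with libraries left out.

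The replicate block alone called 33 members in MATIP cells, beside 32 without it, and the same number as without it in MAflox cells (31), in the difference (30) and in the solvent (9). Of all 13722 genes tested, the block called 10153 in MATIP cells, 8647 in MAflox cells, 8155 in the difference and 4249 in the solvent. Without the block these counts were 10441, 8947, 8491 and 4388. Same-numbered samples did not correlate, but with 2 libraries a group this cannot show whether the cultures were paired. With 2 libraries a group, Lars2, Wars2, Ears2 and Pars2 have the widest standard errors of the members in each comparison.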
